A study of Mus musculus with 13 samples.

Results

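The epidermal differentiation complex is a block of neighbouring genes on mouse chromosome 3 that encode the proteins of the cornified envelope and their calcium-binding relatives. Its genes were taken by symbol, as the protein-coding genes whose names start with Sprr, Lce or S100a together with Lor, Ivl, Flg, Flg2, Rptn, Tchh, Tchhl1, Hrnr, Crct1 and Crnn. This gave 60 genes among the 55332 genes with values, all 60 of them with values, and on GRCm38 they lie between positions 90511034 and 93564643 of chromosome 3. By family they are 14 S100a genes, 15 Sprr genes (11 of them Sprr2), 21 Lce genes (14 Lce1, 6 Lce3 and Lce6a), 7 genes of S100 fused-type proteins (Flg, Flg2, Hrnr, Rptn, Crnn, Tchh and Tchhl1), and the envelope genes Lor, Ivl and Crct1. Sprr2j-ps is annotated as protein-coding in spite of its symbol and was kept.

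Bulk RNA sequencing covered 13 mouse NUT carcinoma (mNC) tumors, each as 1 library. NCT is the Cre-inducible allele of this tumor model, and all 13 tumors carried it as NCT+/-, WT tumors included. The oral Sox2 WT tumors (n = 4) had the genotype KRT14-Cre; NCT+/-, and the oral Sox2 KO tumors (n = 2) carried Sox2fl/fl in addition, with a driver that the sample labels spell KRT4Cre where the study's methods name KRT14-Cre. The pancreatic Sox2 WT tumors (n = 4) were Pdx1-Cre; NCT+/-, and the pancreatic Sox2 KO tumors (n = 3) were Pdx1-Cre; NCT+/- with both Sox2 alleles floxed (Sox2fl; fl). KRT14-Cre acts in basal cells of stratified epithelia and Pdx1-Cre in the pancreatic lineage, so that floxed Sox2 was removed from the tumor lineage and not from the stroma. RNA came from whole dissected tumors, the labels do not say which tumors came from separate animals, and p-values here measure the spread between these tumors. In such bulk RNA, fewer cells of a type and less RNA per cell cannot be told apart.

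As a squamous cell differentiates, transglutaminases cross-link proteins beneath its plasma membrane into the cornified envelope. Involucrin (Ivl) forms an early scaffold, loricrin (Lor) supplies much of the later mass, small proline-rich proteins (Sprr) bridge the other components, and late cornified envelope proteins (Lce) are added near the end. Filaggrin (Flg) and its fused-type relatives bind keratin or envelope proteins, whereas the S100a genes encode small EF-hand calcium-binding proteins that many cell types use. NUT carcinoma is a poorly differentiated squamous carcinoma with patches of keratinization.

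To show what the regulatory ends of these genes look like, the 100 bases before the RefSeq start (GRCm38.p6, written 5′ to 3′ on the gene's strand) are given for 6 genes, Lor, Rptn, Sprr3 and Lce3b, which differed most between pancreatic genotypes in their families, and Ivl and S100a11, which did not. Capitals mark TATA box letters (TATAAA) and AP-1 letters (TGANTCA).
Lor (chr3:92083143-92083242, minus strand): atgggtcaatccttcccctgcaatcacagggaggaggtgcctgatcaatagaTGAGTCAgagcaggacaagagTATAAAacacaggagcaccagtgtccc
Rptn (chr3:93393599-93393698, plus strand): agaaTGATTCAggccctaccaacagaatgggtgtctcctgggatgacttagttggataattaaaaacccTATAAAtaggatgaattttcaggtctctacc
Sprr3 (chr3:92458721-92458820, minus strand): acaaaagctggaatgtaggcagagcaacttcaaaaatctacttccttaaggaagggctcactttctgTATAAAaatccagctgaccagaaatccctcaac
Lce3b (chr3:92932879-92932978, plus strand): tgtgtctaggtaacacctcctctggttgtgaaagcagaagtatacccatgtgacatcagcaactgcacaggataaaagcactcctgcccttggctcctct
Ivl (chr3:92573736-92573835, minus strand): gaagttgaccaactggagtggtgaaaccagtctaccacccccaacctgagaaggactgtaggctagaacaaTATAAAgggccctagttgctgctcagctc
S100a11 (chr3:93520396-93520495, plus strand): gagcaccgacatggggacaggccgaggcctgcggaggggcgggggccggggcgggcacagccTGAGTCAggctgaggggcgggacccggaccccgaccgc

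RefSeq held a promoter for 54 of the 60 genes, and 250 bases before each start were searched on both strands. TATAAA occurred in 22 of the 54 (40.7%) and in 12.4% of all 32851 promoter windows of that length, with 10 of 14 among Sprr genes, 4 of 7 among fused-type genes, 4 of 20 among Lce genes and 2 of 11 among S100a genes. TGANTCA occurred in 17 of 54 (31.5%) and in 6.75% of all windows, namely in 9 of 14 Sprr, 5 of 7 fused-type, 1 of 11 S100a and 0 of 20 Lce windows. The letters ACAAAG, a core of SOX sites, occurred in 16.7% of these windows and 16.5% of all, and CACCC, a core of KLF sites, in 48.1% and 52.0%. Lor and Rptn hold both TATAAA and TGANTCA, Sprr3 holds the first alone, Lce3b holds neither, and Ivl holds both with its TGANTCA before the stretch shown. Sprr2b, Sprr2d, Sprr2e, Sprr2f, Sprr2h, Sprr2i and Sprr2k all hold TATAAA at -29 and their first TGANTCA between -198 and -193. Such like windows are not independent of one another, which limits the comparison of shares with all windows. All of the above are matches of letters within these windows, and binding was not measured.

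Estimated counts totalled 11735315 to 120482829 per tumor, and depth parted the genotypes in both tissues, with the oral KO tumors shallower than every oral WT tumor and the pancreatic KO tumors deeper than every pancreatic WT tumor. Sox2 had 410 to 1487 counts in the 8 WT tumors and 0 to 2 in the 5 KO tumors. The share of counts on protein-coding genes was 59.5% in oral KO tumor 1 and 84.5% to 91.7% in the other 12. Summed over 8 squamous markers such as Krt5 and Krt14, the level was 5757 to 25274 CPM (counts divided by the TMM-scaled library size) in every tumor, and all 8 were detected. Summed over 8 pancreatic acinar markers, it was at most 19.7 CPM except for 255 CPM in pancreatic KO tumor 3. Levels of members are given in the same unit, so that 1 count was worth less in a deeper library, and comparisons of level between genes are per kilobase of exon.

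Per kilobase of exon, S100a11 (mean 1372 CPM per kb over the 13 tumors) and Sprr1a (1208) stood highest, followed by Sprr2f (279), Sprr3 (236) and S100a6 (215). In pancreatic WT tumors the first places went to S100a11 at 1966 CPM per kb and Sprr1a at 1881, and in oral WT tumors to Sprr1a at 1005 and S100a11 at 770. In pancreatic KO tumors Sprr1a stood at 832 and S100a11 at 2035. A mean under 1 CPM per kb was seen for Flg2, Lce1l, Lce1m, Lce6a, S100a3, S100a5 and Tchhl1.

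Some of these genes cannot be separated fully by sequence. Of the 31-base words of Sprr2a1 and Sprr2a2, 96.9% and 97.8% occur in another gene, and the pair overlap on one strand. Neither their split nor their sum is certain, since most words of Sprr2a3 occur in Sprr2a1 as well. The share was 73.6% for Sprr2a3, 13.2% to 58.8% for the Lce1 genes other than Lce1m, 26.7% to 60.3% for Lce3 genes, and 49.2% and 48.9% for S100a4 and S100a11, which share words with genes outside the complex. It was under 1% for Lor, Ivl, Crct1, Sprr1a, Sprr1b, Sprr3, Sprr4 and the 7 fused-type genes. Family sums, which do not depend on how reads were divided within a family, are given for this reason.

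**Figure D1:**
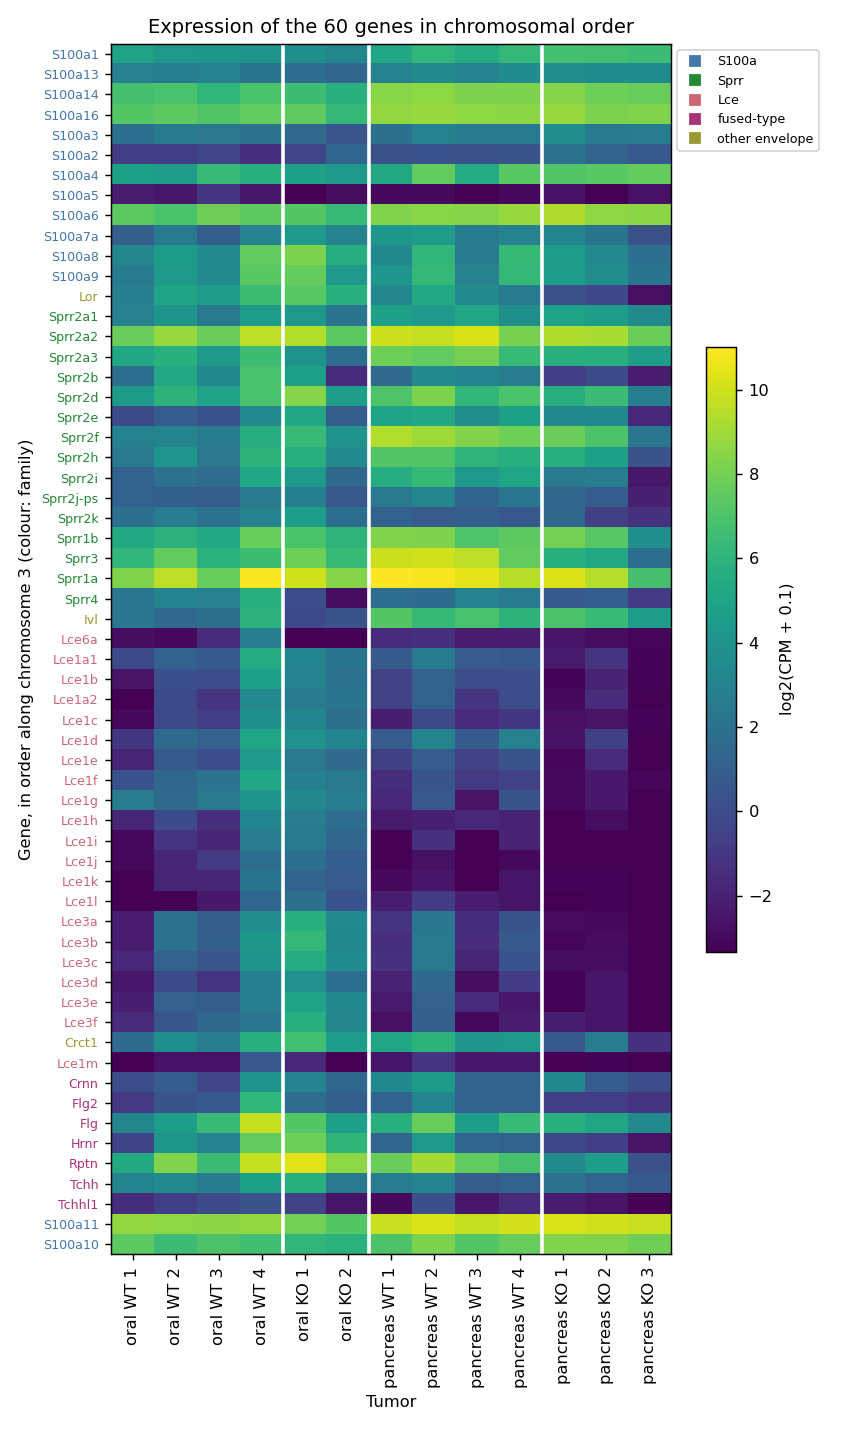
Level of each of the 60 genes (rows, in order along chromosome 3, symbols coloured by family) in each of the 13 tumors (columns) as log2(CPM + 0.1), with white lines between the groups. The Lce rows are dark in the 3 pancreatic KO tumors, where the Lce1 genes sum to at most 1.91 CPM, and oral WT tumor 4 and oral KO tumor 1 hold the highest oral value of each of the 44 genes tested outside the S100a family.

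Pancreatic Sox2 KO tumors had less RNA of the envelope genes than pancreatic Sox2 WT tumors, while the S100a genes differed in both directions. Of the 60 genes, 52 had enough counts to be tested, and the log2 fold change of KO over WT was below 0 for 39 of 39 tested genes outside the S100a family (median -3.14) and for 5 of 13 S100a genes (median 0.35). Over all 24653 genes tested it was below 0 for 47.4% and below -1 for 6.40%, with a median of 0.02, against 36 of the 52 below -1. No member passed the call of edgeR's quasi-likelihood test (adjusted p under 0.05 and a difference above 1 on the log2 scale), a call that 0.292% of all genes passed in the down direction and 0.337% in the up direction. The lowest adjusted p was 0.0723.

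Below an unadjusted p of 0.05 were 23 members lower in KO (8.77% of all genes tested) and 2 higher, S100a1 and S100a2 (7.11%). DESeq2's Wald test on the same genes called 21 members down (2.94% of all genes) and S100a2 alone up (1.58%), with no adjusted p for 3, so that the call rested on the tool, whereas the estimates hardly differed between tools (median of the non-S100a genes -3.19 by DESeq2). All 3 KO tumors lay below all 4 WT tumors for 24 of the 52 members, which 8.75% of all genes did, and above them for 3 (S100a1, S100a2 and S100a13), which 6.80% did. The 8 genes left untested had at most 16 counts in any pancreatic tumor, and with no count filter the fitted difference was below 0 for 46 of 46 genes outside the S100a family. Among the 39 tested, some Lce genes passed the filter through WT tumors alone, which favoured estimates below 0 for them. Pancreatic KO tumor 3 was the lowest of the 7 tumors in 39 of 39 tested non-S100a genes, pancreatic WT tumor 2 was the highest in 29, and without KO tumor 3 the estimate was below 0 for 37 of 39 (median -2.81).

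**Figure D2:**
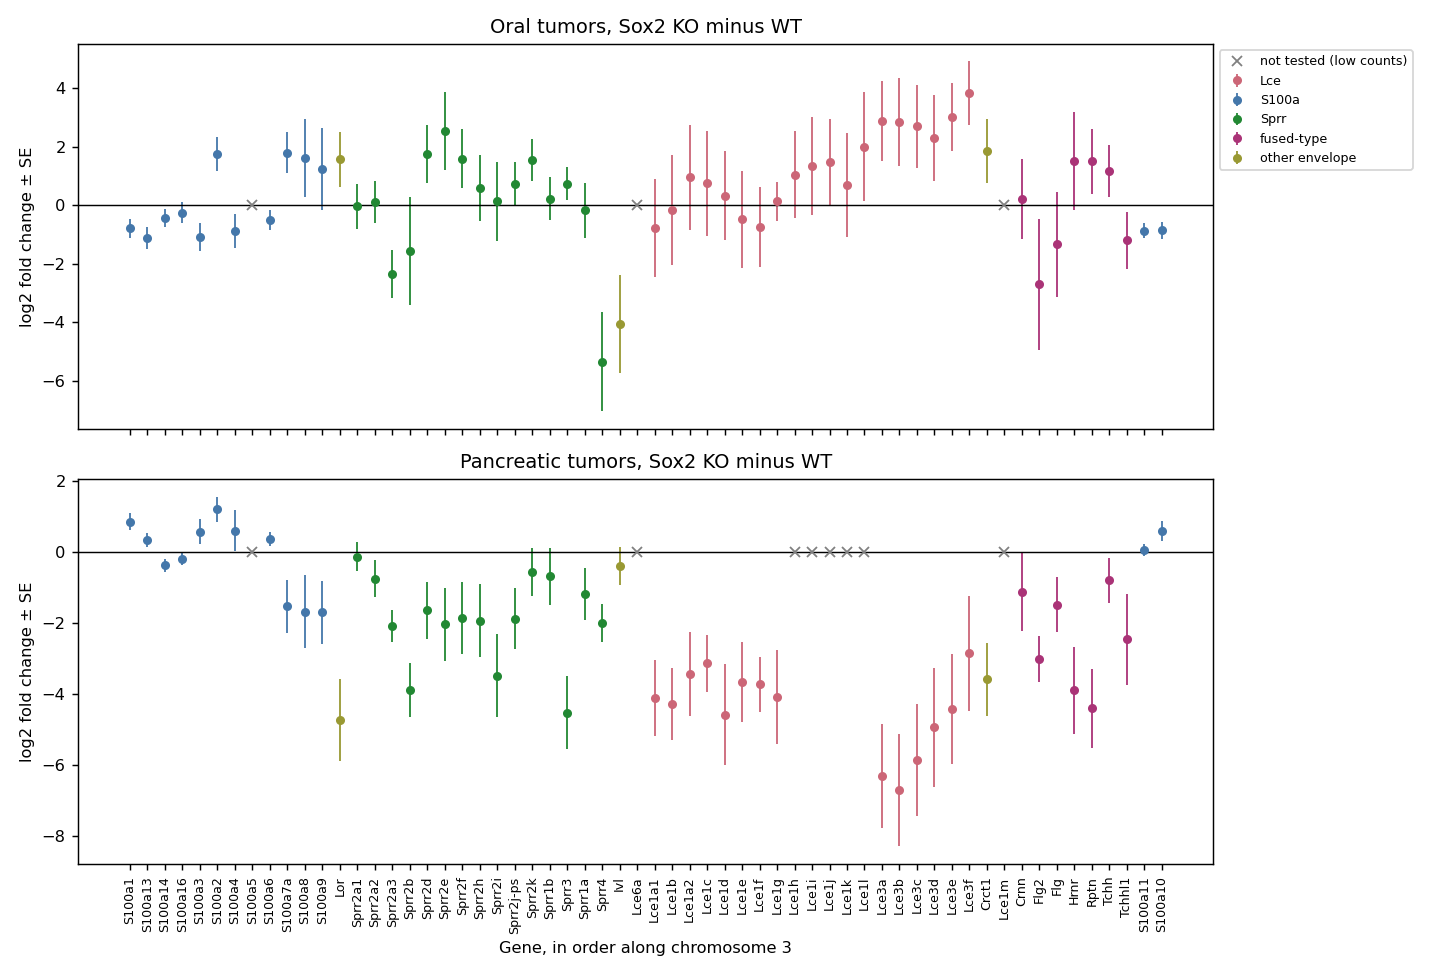
Log2 fold change of Sox2 KO over WT (vertical axis, points with SE bars, edgeR) for each gene in order along chromosome 3 (horizontal axis), in oral tumors (top) and pancreatic tumors (bottom), coloured by family, with grey crosses at 0 for genes not tested. In the pancreas the 39 points outside the S100a family all lie below 0, whereas in the oral tumors 31 of 44 such points lie above 0 and many bars cross it.

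Lor, the main glycine-rich envelope protein of cornified cells, was at 9.76, 41.1, 11.4 and 6.01 CPM in the 4 pancreatic WT tumors and at 1.09, 0.774 and 0.0520 CPM in the 3 KO tumors. The groups did not overlap, and KO tumor 3 (6 counts) was far below the others. The log2 fold change was -4.74 (SE 1.14, edgeR adjusted p = 0.114).

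Ivl, the early scaffold, did not follow Lor. It was at 150, 79.1, 120 and 62.6 CPM in WT and at 129, 79.8 and 24.6 CPM in KO tumors, so that KO tumors 1 and 2 lay within the WT range. The log2 fold change was -0.40 (SE 0.53, adjusted p = 0.771). Crct1, which encodes a small cysteine-rich protein of stratified epithelia, was at 35.5, 62.1, 18.1 and 20.1 CPM in WT and 1.42, 6.74 and 0.321 CPM in KO tumors, without overlap (log2 fold change -3.59, SE 1.04, adjusted p = 0.163).

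Among the Sprr genes, all 15 had estimates below 0, from -4.53 for Sprr3 to -0.13 for Sprr2a1, with a median of -1.88. For 8 of them all KO tumors lay below all WT tumors (8.75% of all genes tested). Sprr3, typical of internal squamous linings such as the esophagus, was at 939, 1032, 763 and 190 CPM in WT tumors and at 50.2, 40.9 and 3.49 CPM in KO tumors. The highest KO tumor was thus well under the lowest WT tumor, and the log2 fold change was -4.53 (SE 1.03, adjusted p = 0.101).

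Sprr1a, the most abundant of the family, was at 2079, 1897, 1383 and 706 CPM in WT and 1222, 681 and 109 CPM in KO tumors. Here the groups overlapped (log2 fold change -1.17, SE 0.74, adjusted p = 0.490). Sprr2f was at 651, 488, 316 and 231 CPM in WT and 215, 128 and 4.78 CPM in KO tumors, with no overlap but with KO tumor 1 close to the lowest WT tumor (log2 fold change -1.86, SE 1.02, adjusted p = 0.426). Sprr2b, picked after its values were seen because it had the lowest adjusted p of all 52 members, was at 2.83 CPM or more in the WT and at most 0.841 CPM in the KO tumors (log2 fold change -3.89, SE 0.76, adjusted p = 0.0723).

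The Lce genes showed the largest differences and the lowest levels. All 14 tested Lce genes had estimates below -1, and 11 did not overlap, with KO below WT (8.75% of all genes tested). The median was -3.91 over 8 Lce1 genes and -5.40 over 6 Lce3 genes. Lce1c, Lce1f, Lce1g, Lce3a, Lce3b, Lce3c, Lce3d and Lce3e stayed under 10 counts in every KO tumor. They passed the count filter through WT tumors alone, so that the filter favoured estimates below 0 for them. The summed Lce1 level was 5.93, 25.4, 6.29 and 14.8 CPM in WT and 0.332, 1.91 and 0.0433 CPM in KO tumors.

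For the Lce3 genes the sum was 1.26, 22.6, 1.00 and 4.56 CPM in WT and 0.245, 0.336 and 0 CPM in KO tumors. Both sums were below the WT range in every KO tumor, and WT tumor 2 held most of the Lce3 RNA of its group. Single Lce3 genes rested on few counts in spite of the deep KO libraries. Lce3b had 11, 195, 11 and 60 counts in WT and 2, 3 and 0 counts in KO tumors, which gave a log2 fold change of -6.71 (SE 1.59, adjusted p = 0.108). Lce3a (4, 2 and 0 counts in KO tumors, -6.32) and Lce3c (5, 4 and 0 counts, -5.86) were alike in this.

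The fused-type genes had estimates from -4.41 to -0.80 with a median of -2.46. Of the 7, 3 did not overlap between genotypes, with KO below WT (8.75% of all genes tested). Without pancreatic WT tumor 2 the median was -0.99. Rptn, which encodes repetin, was at 213, 551, 188 and 116 CPM in WT and at 10.5, 26.2 and 1.07 CPM in KO tumors, and so every KO tumor was below the WT range (log2 fold change -4.41, SE 1.11, adjusted p = 0.124). Hrnr, which encodes hornerin, was at 2.41, 20.2, 2.46 and 2.09 CPM in WT and 0.778, 0.516 and 0.0693 CPM in KO tumors. Its groups were apart as well, with WT tumor 2 far above the rest (-3.90, SE 1.22, adjusted p = 0.187).

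Flg, the profilaggrin gene, was at 55.0, 208, 26.1 and 83.7 CPM in WT and 53.5, 35.2 and 11.3 CPM in KO tumors, and these overlapped (log2 fold change -1.48, SE 0.78, adjusted p = 0.407). Crnn, the cornulin gene of squamous mucosa, and Tchh, the trichohyalin gene, had the smallest estimates of the family (-1.13 and -0.80).

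The S100a genes were spread on both sides of 0, with 3 of 13 estimates below -1 (S100a7a, S100a8 and S100a9) and 1 above 1, and their median of 0.35 ranged from 0.12 to 0.46 when 1 tumor was left out. S100a11 was at 886, 1205, 882 and 1044 CPM in WT and 1185, 1017 and 917 CPM in KO tumors, all within the WT range. S100a6 was at 317, 354, 346 and 449 CPM in WT and 626, 407 and 376 CPM in KO tumors, which overlap, and S100a1 at 37.6, 69.3, 44.8 and 73.8 CPM in WT and 108, 103 and 91.0 CPM in KO tumors, where all KO tumors were above all WT tumors (log2 fold change 0.85, SE 0.24, adjusted p = 0.146). The estimate for S100a11 was 0.06 (SE 0.16) and that for S100a6 0.37 (SE 0.20). S100a2, picked after its values were seen as the highest estimate, was at 1.08 to 1.21 CPM in WT and at 4.06, 2.27 and 1.46 CPM in KO tumors (1.21, SE 0.36, adjusted p = 0.158).

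S100a8 and S100a9, the calprotectin subunits of neutrophils and of stressed keratinocytes, had estimates of -1.68 and -1.70 with wide overlap (S100a8 5.99 to 78.5 CPM in WT, 3.69 to 24.0 in KO tumors). Over 10 neutrophil markers the sum was 690 to 1104 CPM in WT and 159 to 621 CPM in KO tumors, with 0 of 7 tested markers called by edgeR (2 at an unadjusted p under 0.05), 7 of 7 below 0 and 2 markers at 3 counts or fewer in every pancreatic tumor. The part of neutrophils in S100a8 and S100a9 was not tested. The sum of the 14 S100a genes was 2189 to 3142 CPM in WT and 2367 to 3243 CPM in KO tumors.

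**Figure D3:**
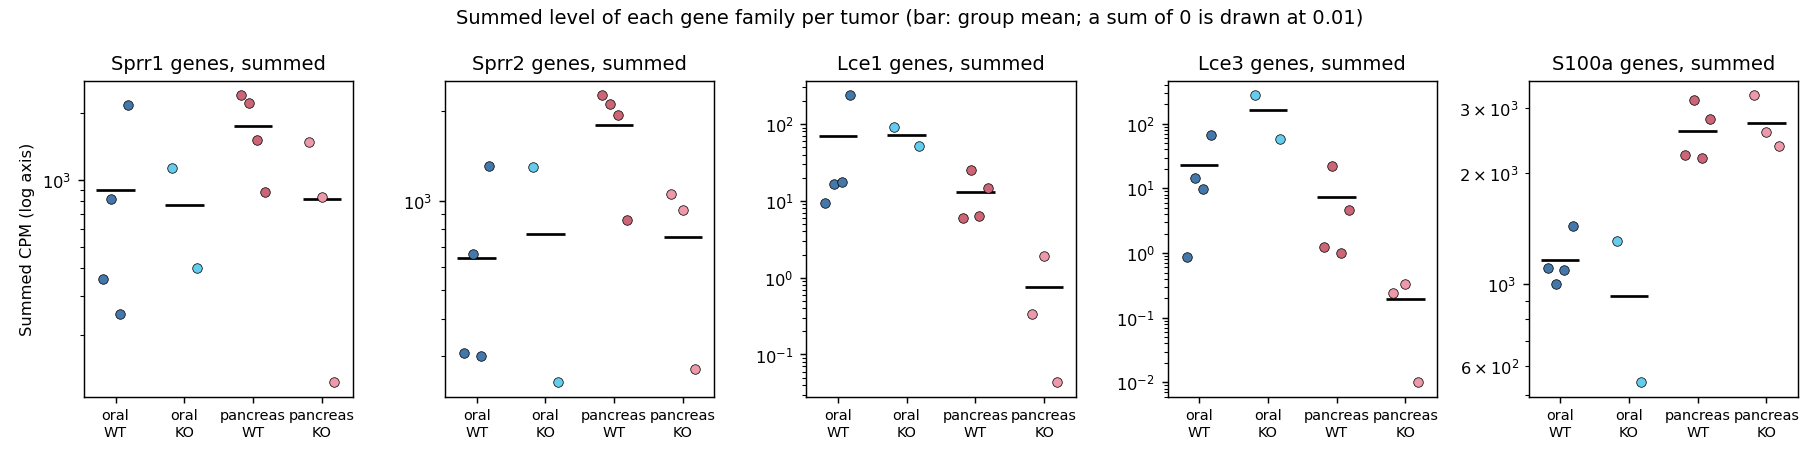
Summed CPM of the Sprr1, Sprr2, Lce1, Lce3 and S100a genes (vertical log axes, which differ between panels) per tumor in the 4 groups, with a bar at the group mean and a sum of 0 drawn at 0.01. In the pancreas the Lce1 and Lce3 sums of all 3 KO tumors are below those of the 4 WT tumors, while the S100a sums overlap.

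Genes outside the complex were examined as lists. Of 14 other cornified envelope genes, all 14 had estimates below 0 (median -1.80), 13 had an unadjusted p under 0.05 and 1 was called. This was Scel, which encodes the envelope precursor sciellin and fell by 1.90 on the log2 scale (SE 0.28, adjusted p = 0.0370), from at least 96.2 CPM in every WT tumor to at most 48.9 CPM in the KO tumors. Of 10 regulators of keratinocyte differentiation, 9 were below 0 (median -0.82), and 6 were lower at an unadjusted p under 0.05. Among them 1 was called, Hopx, an atypical homeodomain gene that fell by 3.88 (SE 0.59, adjusted p = 0.0453), from at least 33.3 CPM to at most 7.79 CPM.

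Trp63, the squamous lineage factor, differed by -0.32 on the log2 scale (adjusted p = 0.525). The 8 squamous markers summed to 15398 to 25274 CPM in WT and 14603 to 17927 CPM in KO tumors. Of these 8 markers 6 were below 0 (median -0.43), with 0 called by edgeR and 4 lower at an unadjusted p under 0.05. The 6 other genes of the region (Kprp, Lelp1, Prr9, Smcp, Pglyrp3 and Pglyrp4) were all below 0 with 0 called by edgeR and 4 at an unadjusted p under 0.05 (median -1.53). Fibroblast markers were above 0 in 8 of 8 genes (median 0.79, 0 called by edgeR, 4 at an unadjusted p under 0.05), and acinar markers had a median of 4.39 (0 called, 2 at an unadjusted p under 0.05), with their RNA in KO tumor 3, in which the envelope genes were lowest. Their part in the member values was not tested.

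In the oral tumors the members had no common direction. Of 57 tested genes 22 were below 0 and 35 above, with a median log2 fold change of 0.59 against -0.003 over all 22342 genes tested. By edgeR 0 members were called up and 0 down, where 8.81% and 2.89% of all genes were called, and the lowest adjusted p was 0.0594. With an unadjusted p under 0.05 there were 4 members higher, S100a2, S100a7a, Lce3e and Lce3f (19.7% of all genes), and 7 lower (15.7%). DESeq2 called S100a7a, Lce3e and Lce3f up (3 members, 11.7% of all genes) and S100a13, Sprr2a3 and Sprr4 down (3 members, 6.26%), with no adjusted p for 23 members. All KO tumors lay below all WT tumors for 8 members (25.5% of all genes) and above them for 3, S100a7a, Lce3e and Lce3f (22.4%). Lce6a, S100a5 and Lce1m were not tested because fewer than 2 oral tumors reached 10 counts, their highest counts being 290, 12 and 60, all in WT tumors.

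The spread within the oral groups was wide. Oral WT tumor 4 was the highest of the 6 tumors in 25 of 44 tested non-S100a genes and oral KO tumor 1 in the other 19, while oral WT tumor 1 was the lowest in 28. Without oral WT tumor 4, 13 members were called up and 1, Ivl, down (8.72% and 3.43% of all genes). Without oral KO tumor 1, 0 were called by edgeR, and the median of the non-S100a genes moved from 0.73 to -0.47, while without oral WT tumor 4 it was 2.39. With protein-coding genes only, 0.116% of genes were called up and 0.0489% down, members 0.

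Skeletal muscle markers, summed, were at 12.4, 14.3 and 17.4 CPM in oral WT tumors 2, 1 and 3, at 562 CPM in oral WT tumor 4, and at 5336 and 3047 CPM in the KO tumors. All 10 were above 0 in KO, with Myh4 (log2 fold change 7.40) and Ryr1 (3.23) called up. Of 8 macrophage markers all 8 were below 0 (median -1.61), 7 at an unadjusted p under 0.05, and 3 were called down (C1qa, C1qb and C1qc, by 2.07, 2.10 and 2.29). The macrophage sums were 139 and 193 CPM in the KO tumors and 356 to 657 CPM in the WT tumors. Of 8 fibroblast markers 2 were called down (Dcn by 3.40 and Lum by 2.09). Of the fibroblast markers 5 of 8 were below 0 (median -0.23), and their sums in the KO tumors, 9449 and 9518 CPM, lay within the WT range of 8729 to 19149 CPM. Of the other lists, the 14 envelope genes outside the complex had 0 calls (0 at an unadjusted p under 0.05, 6 below 0, median 0.51), the 10 regulators 0 calls (4 below 0, median 0.38), the 4 tested other genes of the region 0 calls (1 below 0) and the 8 squamous markers 0 calls (5 below 0, 2 at an unadjusted p under 0.05). The 3 tumors with the most muscle RNA were those with the most Lce3 RNA, and its part in the member values was not tested.

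Lor was at 6.86, 33.0, 23.5 and 95.6 CPM in the 4 oral WT tumors and at 165 and 54.2 CPM in the 2 KO tumors. Both KO tumors exceeded WT tumors 1 to 3 and one of them lay under WT tumor 4 (log2 fold change 1.56, SE 0.92, adjusted p = 0.269). Crct1 (3.18, 14.2, 6.30 and 52.4 CPM in WT, 102 and 25.6 in KO tumors) was placed in the same manner.

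Ivl was at 4.79, 2.86, 3.83 and 59.0 CPM in WT and 0.794 and 1.17 CPM in KO tumors. Both KO tumors were below every WT tumor, but the size of the difference depended on WT tumor 4 (log2 fold change -4.05, SE 1.67, adjusted p = 0.138, and -1.85 with adjusted p = 0.0487 without it). Sprr4, picked after its values were seen as the gene with the lowest estimate, was at 4.88, 8.84, 7.54 and 51.3 CPM in WT and 0.993 and 0.0390 CPM in KO tumors, again without overlap (log2 fold change -5.34, SE 1.70, adjusted p = 0.0793). It rested on 10 counts and 1 count in the KO tumors.

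The Sprr family as a whole had 5 estimates below 0 and 10 above (median 0.21), a tally that rested on single tumors. Without oral KO tumor 1 all 15 were below 0 (median -1.09), without oral WT tumor 1 or 3 there were 8 below 0, and without oral WT tumor 4 or oral KO tumor 2 there were 3 (medians 1.10 and 0.98). Sprr3 was at 71.1, 189, 56.2 and 93.2 CPM in WT and 234 and 84.8 CPM in KO tumors, overlapping, with an estimate of 0.74 (SE 0.57, adjusted p = 0.387). Sprr1a was at 315, 763, 207 and 1954 CPM in WT and 1007 and 338 CPM in KO tumors, within the WT range.

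All 6 Lce3 genes were above 0, from 2.29 to 3.82, with a median of 2.85, which moved to 1.31 without oral KO tumor 1 and to 4.50 without oral WT tumor 4, where 4 were called up. Their sum was 0.861, 14.3, 9.79 and 67.7 CPM in WT and 274 and 57.2 CPM in KO tumors, so that the second KO tumor lay under oral WT tumor 4. The Lce1 genes had a median of 0.70 (9 of 13 tested above 0), which was 3.60 without oral WT tumor 4 (0 below 0, 6 called up) and -0.03 without oral KO tumor 1 (7 below 0). Leaving out any of the other 3 WT tumors gave 0.29 to 0.35. The Lce1 genes had sums of 9.47, 16.5, 17.3 and 236 CPM in WT and 92.2 and 51.9 CPM in KO tumors. Lce3f, picked after its values were seen as the highest estimate, did not overlap (0.221 to 4.78 CPM in WT, 50.6 and 9.52 in KO tumors) and had a log2 fold change of 3.82 (SE 1.08, adjusted p = 0.0606).

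Of the fused-type genes, Rptn was at 41.3, 317, 91.9 and 859 CPM in WT and 1329 and 388 CPM in KO tumors (log2 fold change 1.49, SE 1.12, adjusted p = 0.371). Hrnr was at 0.662, 18.9, 8.30 and 194 CPM in WT and 230 and 66.9 CPM in KO tumors (1.52, SE 1.68, adjusted p = 0.548). For both genes KO tumor 2 lay between WT tumor 4 and the other 3 WT tumors. Flg was at 9.58, 26.2, 81.5 and 863 CPM in WT and 153 and 27.7 CPM in KO tumors, and its estimate of -1.34 turned to 1.30 without WT tumor 4.

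Most of the S100a genes were lower in the oral KO tumors, 9 of 13 tested being below 0 (median -0.51, and -1.08 without oral KO tumor 1 or -0.12 without oral KO tumor 2). S100a11 was at 416, 379, 372 and 408 CPM in WT and 252 and 153 CPM in KO tumors, a tight WT group with both KO tumors beneath it (log2 fold change -0.87, SE 0.25, adjusted p = 0.0594). S100a1 was at 30.6, 19.7, 19.1 and 16.9 CPM in WT and 13.9 and 9.60 CPM in KO tumors, and S100a13 at 7.55, 6.99, 7.86 and 4.66 CPM in WT and 3.38 and 2.54 CPM in KO tumors. Neither overlapped, with estimates of -0.80 and -1.12.

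S100a8 was at 9.22, 22.6, 11.3 and 192 CPM in WT and 288 and 49.0 CPM in KO tumors, and S100a9 at 5.91, 21.2, 11.4 and 163 CPM in WT and 201 and 21.2 CPM in KO tumors. The tumors with most of these transcripts, oral WT tumor 4 and oral KO tumor 1, had neutrophil markers summing to 64.4 and 41.7 CPM, whereas oral WT tumor 2, with 1281 CPM of neutrophil markers, had 22.6 CPM of S100a8. The part of neutrophils in these values was not tested.

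**Figure D4:**
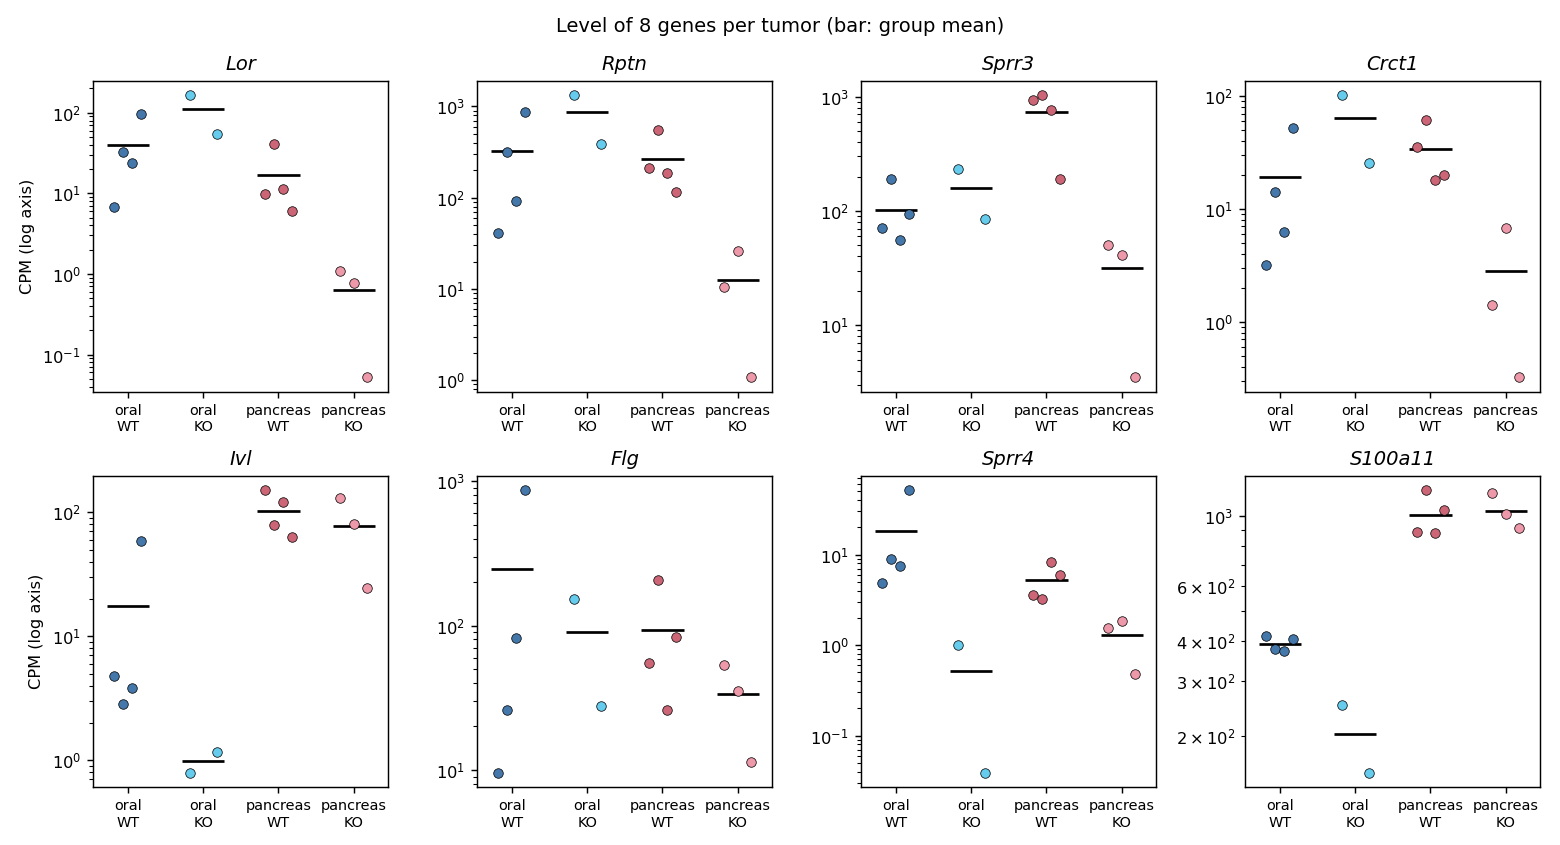
CPM (log axes) of Lor, Rptn, Sprr3, Crct1, Ivl, Flg, Sprr4 and S100a11 in each tumor of the 4 groups, with a bar at the group mean. Lor, Rptn, Sprr3 and Crct1 are lower in the 3 pancreatic KO tumors than in the 4 WT tumors and not in the oral KO tumors, whereas S100a11 is lower in the 2 oral KO tumors alone.

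Whether the genotype difference itself differed between the tissues was tested as an interaction in 1 fit of all 13 tumors, with 59 members tested. By edgeR 12 were called. The difference in the pancreas was lower than in the oral tumors for 8 members (7.41% of all 25836 genes were called in this direction), Lor (-6.20, SE 1.52, adjusted p = 0.0237), Sprr3 (-5.17, SE 1.21, adjusted p = 0.0201), Rptn (-5.80, SE 1.66, adjusted p = 0.0385), Crct1 (-5.33, SE 1.60, adjusted p = 0.0448) and the Lce3 genes Lce3a (-9.05), Lce3b (-9.41), Lce3c (-8.42) and Lce3e (-7.31). It was higher for 4 (4.85% of all genes), all of them S100a genes, namely S100a1 (1.72, SE 0.41, adjusted p = 0.0197), S100a13 (1.54, SE 0.37, adjusted p = 0.0210), S100a10 (1.52, SE 0.43) and S100a11 (1.01, SE 0.28, adjusted p = 0.0332). Outside the complex, 1 of 10 regulators was called lower, Hopx (-5.07, SE 1.30, adjusted p = 0.0279). So were 2 of 14 other cornified envelope genes and 3 of 10 skeletal muscle markers. Called higher were 3 of 8 macrophage, 2 of 8 fibroblast and 2 of 8 squamous markers. The other genes of the region and the neutrophil and acinar markers had 0 calls. Ivl (3.71, SE 1.66, adjusted p = 0.140) and Flg (-0.04, SE 1.91, adjusted p = 0.998) were not called.

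The calls depended on single tumors. Without oral KO tumor 1, the 8 lower calls were lost (4.89% of all genes were called lower), and the 4 members called were S100a1, S100a3, S100a11 and S100a13, all higher (3.10%). The 8 estimates without that tumor ran from -7.42 for Lce3a to -3.97 for Crct1, with -5.14 for Lor, -4.22 for Sprr3 and -4.61 for Rptn. Without pancreatic KO tumor 3 the 4 called were Lor, Sprr3, S100a1 and S100a13 (5.96% of all genes in either direction). There were 34 without oral WT tumor 4 (15.3% of all genes) and 6 with protein-coding genes only (4.53%), which were Lor, Sprr3, Lce3a, Lce3b, S100a1 and S100a13. Leaving out one at a time oral WT tumor 2 or 3, oral KO tumor 2, pancreatic WT tumor 3, or pancreatic KO tumor 1 or 2 gave 5 to 7.

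Between tissues, oral and pancreatic Sox2 WT tumors were compared as well. Of 58 tested members, 4 were higher in oral tumors (9.30% of all genes) and 10 lower (7.24%). All 20 tested Lce genes had estimates above 1 (median 2.17), of which Lce1f, Lce1g and Lce1j were called. Without oral WT tumor 4, however, the median was 0.14 and 7 of the 15 then tested were below 0. For the fused-type genes the median of 1.40 turned to -0.83 without that tumor. Lce1h and Lce1j passed the count filter through oral tumors alone, which favoured estimates above 0 for them. Lce1j had 0, 2, 0 and 1 counts in the pancreatic WT tumors. On the other side, 11 of 13 tested S100a genes were below 0, of which S100a1, S100a2, S100a6, S100a11, S100a14 and S100a16 were called. The called Sprr genes were Sprr2k on the oral side and Sprr2a3, Sprr2e, Sprr2f and Sprr3 on the pancreatic side. Without oral WT tumor 4 there were 3 higher and 19 lower, without oral WT tumor 2 there were 6 lower, and leaving out pancreatic WT tumor 1, 3 or 4 left 1, 2 and 2 higher. The shares of all genes called in these fits are not given, so that these counts show only that the calls depended on single tumors.

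Sprr2f showed the widest gap among the genes called lower, with 7.86, 8.74, 5.95 and 49.4 CPM in oral and 651, 488, 316 and 231 CPM in pancreatic WT tumors, far apart (log2 fold change of oral over pancreatic -4.55, SE 0.79, adjusted p = 0.00512). S100a14 was at 110, 121, 70.2 and 126 CPM in oral and 354, 389, 303 and 301 CPM in pancreatic WT tumors (-1.66, SE 0.20, adjusted p = 0.00110), and S100a16 at 149, 178, 138 and 190 CPM in oral and 414, 452, 387 and 367 CPM in pancreatic WT tumors (-1.31, SE 0.14, adjusted p = 0.000824). Both were apart by far more than the spread within either tissue. In the other direction Sprr2k was at 3.64, 6.56, 3.93 and 7.79 CPM in oral and 2.13, 1.64, 1.96 and 1.38 CPM in pancreatic WT tumors (1.62, SE 0.32, adjusted p = 0.00787).

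Groups did not overlap for 10 members on the lower side (13.8% of all genes) and for Sprr2k and Lce1g, 2 members, on the higher side (14.2%). Ivl lay below every pancreatic WT tumor in every oral one (-2.54, SE 0.99) but was not called (adjusted p = 0.0960), and Lor (1.23) and Rptn (0.30) overlapped. The 8 squamous markers summed to 5859 to 11874 CPM in oral WT and 15398 to 25274 CPM in pancreatic WT tumors, and the 8 fibroblast markers, all 8 called higher in oral tumors, to 8729 to 19149 and 1138 to 2231 CPM. Their part in the member values was not tested. The same WT tumors serve in this comparison and in those of genotype.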

How the data were processed

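RNA of 13 tumors was sequenced after ribosomal RNA depletion. The authors trimmed reads with Trim Galore 0.6.10, quantified them with Kallisto 0.50.0 on GENCODE M23 transcripts (GRCm38, stranded) and deposited estimated counts per gene, unscaled, of which 27.3% are not whole. Groups came from the sample labels. Genes, lists and members were chosen with earlier results of these data known. Symbols and positions came from GENCODE M21 on the same build, which holds 55141 of 56085 table rows, and promoters from RefSeq GRCm38.p6.

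Counts were rounded and tested in R 4.3.3 with edgeR 4.0.16 (TMM, robust quasi-likelihood test, Benjamini-Hochberg adjustment over all genes tested). A gene entered a fit with 10 or more counts in 2 or more of its tumors. Called genes had an adjusted p under 0.05 and differed by more than 1 on the log2 scale. Each comparison used its own tumors, and the interaction all 13. CPM values use library sizes scaled by TMM, and errors cover sampling of tumors only. Each SE was derived from the edgeR test, as the absolute log2 fold change divided by the square root of its F statistic. The fits were tested on simulated counts. DESeq2 1.42.0 was an alternative, as were its size factors, no filter, protein-coding genes only, thinning, a replicate block, 1 joint fit and leaving out each tumor.

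Named with values per tumor were up to 8 called members per comparison by adjusted p, the 3 members of each family highest per kilobase, Ivl, Lor, Flg, S100a8 and S100a9, and called genes of the other lists. Any other is marked as picked after its values were seen or belongs to a complete list. The lists (envelope genes outside the complex, other genes of the region, regulators, and markers of neutrophils, macrophages, fibroblasts, skeletal muscle, squamous epithelium and pancreatic acinar cells) were written by hand.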

Additional observations from a re-analysis of the deposited data

Results flagged for a closer look

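Among groups of 4 tumors, 11 values of 52 gene or family groups examined stood far from the other 3. The rule was set to flag about 1 of 20 groups if groups were independent. These groups share the same tumors and include both genes and family sums, so that the number flagged cannot be set against that rate. Oral WT tumor 4 held 8 of them, at 863 CPM for Flg, 194 for Hrnr, 59.0 for Ivl, 16.2 for Lce3c, 192 for S100a8, 163 for S100a9, 49.4 for Sprr2f and 236 for the summed Lce1 genes. It was also the oral WT tumor with the most skeletal muscle RNA (562 CPM over 10 markers). Pancreatic WT tumor 2 held 3, at 20.2 CPM for Hrnr, 41.1 for Lor and 22.6 for the summed Lce3 genes.

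The genotype difference differed between tissues by the interaction test for 12 members, given as the pancreatic minus the oral log2 difference. It was -6.20 for Lor, -5.17 for Sprr3, -5.80 for Rptn, -5.33 for Crct1, -9.05 for Lce3a, -9.41 for Lce3b, -8.42 for Lce3c and -7.31 for Lce3e, and 1.72 for S100a1, 1.54 for S100a13, 1.52 for S100a10 and 1.01 for S100a11. Of all 25836 genes tested 7.41% were called lower, as were 8 members, and 4.85% higher, as were 4 members. With protein-coding genes only, 6 members were called (4.53% of all genes). Only 2 oral KO tumors entered this test, and the calls depended on single tumors.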

How the results depend on the processing

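With 0 members called in either genotype comparison, oral calls became 3 up and 3 down with DESeq2, 1 up (S100a2) and 3 down (S100a13, Sprr2a3, Sprr4) in the joint fit, and 0 to 13 up and 0 to 1 down when 1 tumor was left out. Pancreatic calls became 1 up and 21 down with DESeq2, 1 down (Lce1f) without a filter and 0 to 1 down without 1 tumor (Flg2 without WT 2, Sprr2a3 without WT 4, Lce1b without KO 2). Between tissues, DESeq2 called 7 higher and 16 lower, no filter gave 1 higher, and leaving out 1 tumor gave 1 to 6 higher and 6 to 19 lower. For the interaction, no filter gave 5, thinning 5, protein-coding genes 6, and leaving out 1 tumor 4 to 34. With tumor number as a replicate block, 8 members were called down in the pancreas, 2 in the interaction and 0 in the oral tumors, but the numbers do not pair the tumors, since same-numbered tumors correlated at -0.0800 and -0.0383 in the oral groups, 0.317, -0.0247 and -0.0690 in the pancreas, and -0.0734 to 0.0284 between WT groups. Where no share of all genes called is given for a setting, here or above, the count of members shows its dependence on the setting alone. Such a count is not a result about the members. Scaled to protein-coding totals, the Lce1 sum in oral KO tumors was 105 CPM and the S100a sum in oral WT tumors 1410 CPM. Over all tested members, the estimate changed sign under at least 1 alternative for 26 of 57 in the oral tumors, 3 of 52 in the pancreas, 15 of 58 between tissues and 14 of 59 in the interaction. Among the members named by the rule, those that did so in the comparisons of genotype were, in the oral tumors, Flg (2.13 with the block, -3.09 to 1.30 leaving out 1 tumor, positive without WT 4), Sprr1a (0.00 with protein-coding genes, 0.35 with the block, -1.20 to 0.77 leaving out 1 tumor, positive without WT 4 or KO 2), S100a16 (-1.08 to 0.27, positive without KO 2) and, negative without KO 1, S100a8 (-0.21 to 3.67), S100a9 (-1.20 to 3.23), Sprr2f (-0.06 to 2.85), Sprr2k (-0.55 to 2.36) and Sprr3 (-0.21 to 1.31). In the pancreas they were Ivl (-0.97 to 0.03, positive without KO 3) and S100a11 (-0.03 to 0.16, negative without WT 1, WT 3 or KO 1). The causes were not tested. Of the named members' values under the alternatives, 766 kept direction and call, 73 lost a call, 14 gained one and 16 changed sign. Between tissues and in the interaction, this tally covers only the named members called there. Some named members not called there changed sign too, such as Rptn (-0.83 to 0.92) and Flg (-1.25 to 2.16) between tissues. Low counts limit the single Lce genes in the pancreas.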
